A study of Mus musculus with 11 samples.

Results

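Keratinocytes (KCs) make up most of the epidermis. They divide in the basal layer, differentiate as they move outward, and are tied to one another by desmosomes, adherens junctions and tight junctions. Langerhans cells (LCs) lie between them, and KCs supply signals that keep LCs in place.

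The data described here are the KC libraries of a mouse RNA-seq series on KCs and dendritic epidermal T cells (DETCs) with and without LCs. They were chosen by the population named in the library labels and make up 6 of the 11 libraries. The comparison asks which genes and functions change in KCs when the epidermis has no LCs. Genes of MHC class II and *Tslp* are left aside.

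Mice were 8 weeks old and female. Those labelled DTA carry diphtheria toxin subunit A under the human langerin promoter (huLangerin-DTA), so that LCs are absent from birth on. They are called LC-/- here, and WT littermates served as controls. There were 3 WT mice (W1 to W3) and 3 LC-/- mice (L1 to L3), with 1 KC library of polyadenylated RNA per mouse number, and nothing in the labels says that mice were pooled. KCs were sorted from flank epidermis as live single cells without MHC class II, CD45, langerin and c-kit on the surface. Because LCs are lacking throughout life, the comparison describes their constitutive absence and not the hours or days after a loss. An RNA value of a sorted population is also an average, so fewer cells of a type and less RNA per cell cannot be told apart.

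Reads on genes numbered 13592446, 14340318 and 15963265 in the WT libraries and 13491075, 14440409 and 14674781 in the LC-/- libraries. Values below are normalized counts, listed for W1, W2 and W3 and then for L1, L2 and L3. The floor of detection, 3 reads, was 1.88e-05% to 2.22e-05% of a library and covers counting error alone. *Cd207*, the langerin gene, had counts of 6.15, 26.9 and 15.6 in WT libraries and 0 in all 3 LC-/- libraries, which checked the labels. *Krt5* and *Krt14*, the keratin pair of basal KCs, marked all 6 libraries. Counts of *Krt5* were 114504, 121660 and 122907 in WT and 116781, 112861 and 100564 in LC-/- libraries, a log2 fold change of -0.12 that limma did not call (adjusted p = 0.691, and -0.06 without L3). Those of *Krt14* were 70230, 69888 and 74746 against 75379, 75855 and 69101, a log2 fold change of 0.04 (limma adjusted p = 0.891, 0.01 without L2 and 0.08 without L3) whose sign turned under quantile normalization. Per kilobase of transcript, *Krt5* at 52289, *Serpinb2* at 44646 and *Krt14* at 41259 stood above *Actb* at 32792 and the suprabasal keratin gene *Krt10* at 28542.

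Genes called higher in KCs of LC-/- mice included members of growth factor signalling, pericellular proteolysis, cell junctions, actin and focal adhesions, NF-κB and the making of ribosomes. Genes called lower included those of glutamine synthetase, a lactate exporter, the oxygen sensors *Egln1* and *Egln3*, the insulin receptor substrate *Irs1* and the retinoid receptors *Rxra* and *Rarg*. Genes of differentiation, the cell cycle, interferon responses and antimicrobial defence made up few of the calls or none. Most changes were under 2-fold, and many of the strongest increases were in genes with low or middling counts.

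A gene was called when its adjusted p in limma (Benjamini-Hochberg) was under 0.05. Of the 14419 genes tested, 775 were called higher in LC-/- KCs, or 5.37%, and 267 lower, or 1.85%. The counts per gene list below are to be read against these shares. Together these were 1042 genes or 7.23%, and the change was at least 2-fold in 79 of them, 51 higher and 28 lower. The count tests called more, with 1192 higher and 591 lower in edgeR and 1219 higher and 538 lower in DESeq2. The median log2 fold change over all tested genes was -0.01. In every called gene named below, the 3 LC-/- libraries lay on one side of the 3 WT libraries. The naming rule required this of the largest changes, and the calls rest on the same values. Such separation, where described below, is therefore no separate support for a call.

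The limma calls depended on single libraries, and each fit without one compares 2 libraries with 3. Without W1 limma called 10 genes higher and 5 lower, without W2 7 and 9, without W3 200 and 24, without L1 5 and 0, without L2 552 and 169, and without L3 10 and 6. At an unadjusted p under 0.05 the fit without L1 had 1772 genes higher and 1315 lower. DESeq2, run with each library left out after the limma values had been seen, called 700 higher and 154 lower without W1, 723 and 263 without W2, 995 and 302 without W3, 864 and 256 without L1, 1468 and 603 without L2, and 882 and 330 without L3. Called genes taken up for naming numbered 165, all by the rule for naming genes except *Epcam*, which was chosen after its values were seen. Of these, limma still called 3 without W1, 1 without W2, 47 without W3, 0 without L1, 82 without L2 and 4 without L3. DESeq2 gave an adjusted p to 152 of the 165 with all libraries and called 144. It called 122 of 141 with an adjusted p without W1, 124 of 148 without W2, 131 of 142 without W3, 127 of 142 without L1, 137 of 145 without L2 and 131 of 142 without L3. None of the 165 changed its sign in any of these fits. Without the mean-variance trend limma called 118 of the 165, in a fit over all 11 libraries 125, and with quantile normalization 95, and the genes lost with quantile normalization are named with their groups below. Other genes named below that lost their call without the trend were *Slc7a1*, *Pdia4*, *Rxra*, *Shmt2* and *Cycs*. *Inhba* lost its call in the fit over all 11 libraries, as did *Slc34a2*, *Cldn4*, *Wnt5b*, *Adm*, *Osmr*, *F2rl1*, *Dkk3*, *Ppara*, *Sostdc1* and *Cycs*, which were called with quantile normalization. The calls of single genes and lists below carry this dependence. A left-out range below is the span of a log2 fold change or median over the 6 limma fits without 1 library.

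*Anxa3*, *Inhba* and *Plaur* had the largest increases of the genes named here that reached a mean count of 10. *Anxa3* encodes annexin A3, which binds phospholipids in the presence of calcium. Its counts were 5.12, 6.49 and 10.4 in WT and 56.2, 33.6 and 38.9 in LC-/- libraries. *Inhba* encodes the subunit that pairs with itself to form activin A, a growth factor of the TGF-β family. It had 10.2, 16.7 and 20.7 counts in WT and 59.5, 43.8 and 70.4 in LC-/- libraries. For *Plaur*, the receptor that holds the protease urokinase at the cell surface, the counts were 250.05, 242 and 363 against 979, 768 and 992. In all 3 genes the lowest LC-/- library was at more than 2 times the highest WT library. The log2 fold changes were 2.41 for *Anxa3*, 1.83 for *Inhba* and 1.69 for *Plaur*, with limma adjusted p values of 0.0245, 0.0381 and 0.0207. DESeq2 gave *Anxa3* a log2 fold change of 2.53 without an adjusted p, and edgeR called it (adjusted p = 0.00076, range over alternatives 0.000509 to 0.0363).

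Among genes with higher counts, 3 enzymes that build membrane lipids and surface sugars rose strongly. *Hs3st1*, whose enzyme adds 3-O-sulfate groups to heparan sulfate, had 887, 709 and 766 counts in WT and 2136, 1715 and 2505 in LC-/- libraries. *Sgms2*, a sphingomyelin synthase of the plasma membrane, had 918, 889 and 1014 against 2436, 1993 and 2732, and *Sgms1*, its counterpart in the Golgi, had 3112, 3053 and 3968 against 7245, 6774 and 7599. For each of the 3 genes the LC-/- libraries lay far above WT, with L2 the lowest of them. The log2 fold changes were 1.42, 1.33 and 1.10 (limma adjusted p = 0.0205, 0.0193 and 0.0194).

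**Figure D1:**
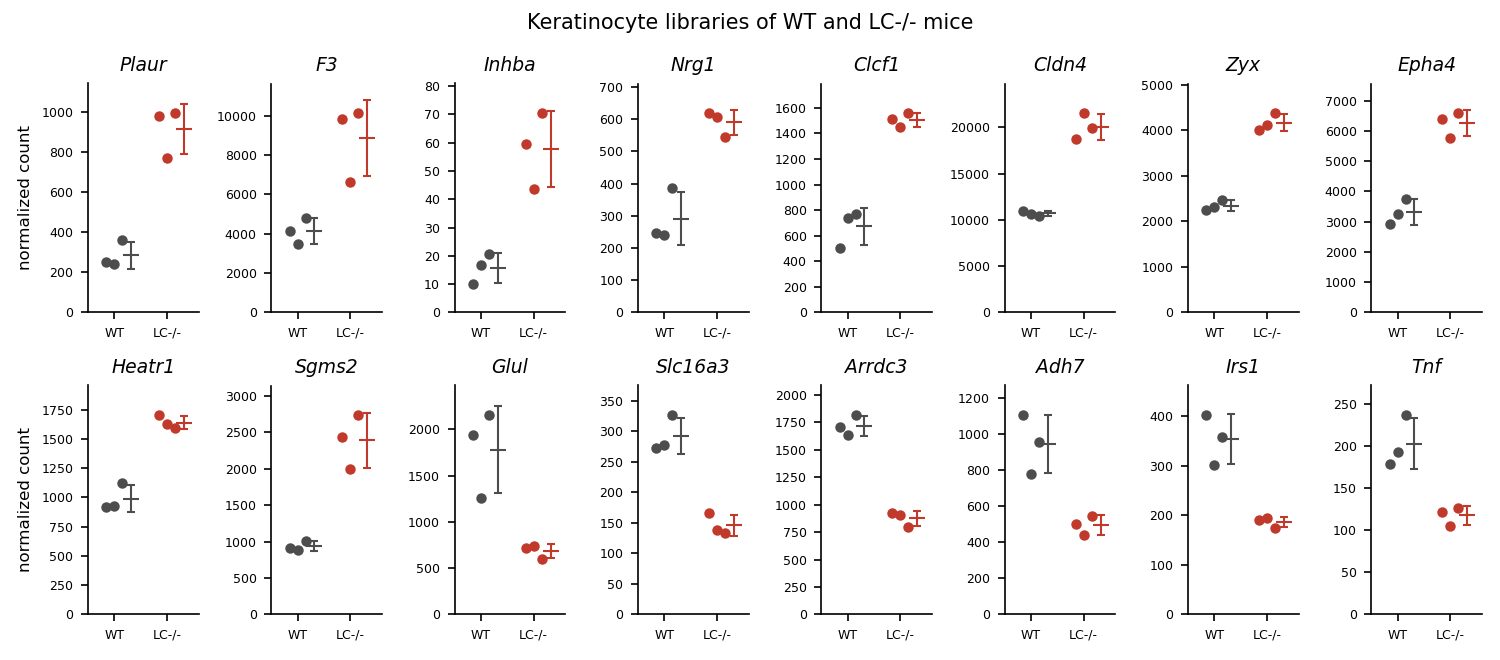
Normalized counts of 16 genes in the 6 KC libraries on linear axes that start at 0, with 1 dot per library and bars for the mean ± SD of each genotype. For *Plaur*, dots of LC-/- libraries lie at 979, 768 and 992 and those of WT libraries at 250.05, 242 and 363.

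Genes of growth factor ligands, receptors and feedback proteins were among those called higher. *Clcf1* encodes a cytokine of the interleukin 6 family that signals through gp130, and its counts went from 507, 739 and 771 in WT to 1509, 1449 and 1557 in LC-/- libraries. *Nrg1*, a ligand of the receptors ErbB3 and ErbB4, had 247, 241 and 386 counts against 618, 608 and 545. The ephrin receptor gene *Epha4* had 2934, 3260 and 3764 against 6403, 5771 and 6581. In each gene the 2 genotypes were well apart, although W3 of *Nrg1* came near the lowest LC-/- library. Log2 fold changes came to 1.18 for *Clcf1* (limma adjusted p = 0.0273), 1.05 for *Nrg1* (0.0454) and 0.92 for *Epha4* (0.0207).

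The receptor tyrosine kinases of epidermal growth factor and hepatocyte growth factor rose as well. *Egfr* counts were 3410, 3473 and 4192 in WT and 5849, 4944 and 5795 in LC-/- libraries, and *Met* counts 2375, 2384 and 2727 against 4254, 3284 and 4167. Neither gene had an LC-/- library within the WT range, and L2 was the lowest of the 3 in both. Their log2 fold changes were 0.58 (limma adjusted p = 0.0446) and 0.64 (0.0449). *Tgfa*, a ligand of the epidermal growth factor receptor, rose by 0.50, and so did *Errfi1*, which encodes an inhibitor of that receptor, by 0.53 on the log2 scale. Of 23 tested genes of the epidermal growth factor family, ErbB receptors and connected signalling, among them *Met*, limma called these 5 (*Nrg1*, *Met*, *Egfr*, *Errfi1* and *Tgfa*) higher and 0 lower, with a median log2 fold change of 0.16 against -0.01 over all genes. With quantile normalization that median was 0.05, all 5 calls were lost and *Errfi1* was at 0.32. Of the other ligands of the family, *Areg* and *Hbegf* had log2 fold changes of 0.44 and 0.09 that limma did not call (adjusted p = 0.235 and 0.742). Their left-out ranges were 0.28 to 0.60 and -0.05 to 0.21, and the sign of *Hbegf* also turned under quantile normalization. *Ereg* and *Btc* were at -0.35 and -0.21 without a call (limma adjusted p = 0.562 and 0.755). *Epgn*, *Nrg2* and *Nrg4* were at 0.30, 0.36 and 0.40, also without a call (limma adjusted p = 0.635, 0.359 and 0.219).

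Some feedback genes of MAP kinase signalling were called higher too. *Dusp10*, *Dusp16* and *Dusp8* encode phosphatases that switch off MAP kinases, and rose by 0.61, 0.45 and 0.38 on the log2 scale. *Phlda1*, a gene that responds to growth factors, went from 5063, 4032 and 5095 to 8020, 7608 and 9947 counts, though 33% of its exon bases overlap a gene on the other strand and the strand of counting is not given in the sources used here. *Fosl1* encodes Fra-1, a subunit of the transcription factor AP-1, and had 16795, 14357 and 15829 counts in WT and 20753, 23089 and 25761 in LC-/- libraries. *Fosl1* was higher in all 3 LC-/- libraries (log2 fold change 0.56, limma adjusted p = 0.0453). Of 24 tested feedback and target genes, 6 were called higher (*Epha4*, *Phlda1*, *Dusp10*, *Fosl1*, *Dusp16* and *Dusp8*) and 0 lower, with a median of 0.17 (left-out range 0.10 to 0.22). Quantile normalization gave a median of 0.07 and did not call *Phlda1*, *Fosl1* or *Dusp8*.

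AP-1 genes were called in both directions. Of the small Maf proteins, which carry no activation domain, *Mafg* and *Maff* rose slightly, with log2 fold changes of 0.40 and 0.34 whose calls were lost with quantile normalization, where *Maff* had 0.22, and *Mafk*, at 0.12, was not called (limma adjusted p = 0.253). *Maf* fell by 0.40 on the log2 scale. *Fos*, the gene of the founding subunit, had 49177, 51537 and 48846 counts in WT and 34657, 35715 and 41374 in LC-/- libraries, all 3 below WT. Its log2 fold change of -0.42 was not called by limma (adjusted p = 0.0773), but DESeq2 made the call (adjusted p = 6.24e-05, with a range over alternatives up to 0.112). Over 18 tested AP-1 genes the counts were 3 higher and 1 lower with a median of 0.00 (left-out range -0.02 to 0.02), or -0.11 under quantile normalization, which called 0 higher and 2 lower, with *Maf* but not *Fosl1* among its calls. Immediate early genes, which respond within minutes to cell handling, gave 1 limma call among 26 tested (*Maff*), with 7 higher and 2 lower with an unadjusted p under 0.05 and 4 higher and 1 lower by DESeq2 and by edgeR. Their median of 0.01 had a left-out range of -0.02 to 0.07 and turned to -0.06 under quantile normalization, where 0 were called higher and 2 lower. Their summed counts were 580736, 593888 and 588215 in WT and 542599, 601696 and 640069 in LC-/- libraries, which overlap.

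Beside *Inhba*, the gene of an activin antagonist rose. Follistatin, encoded by *Fst*, binds activin and blocks it. The *Fst* counts were 2925, 3288 and 3452 in WT and 5495, 4738 and 4882 in LC-/- libraries, without overlap and with L1 the highest (log2 fold change 0.65, limma adjusted p = 0.0251). *Tgfbr2*, the type II receptor of TGF-β, rose by 0.52 and *Tgif1*, a transcriptional repressor of TGF-β targets, by 0.36 on the log2 scale. Out of 31 tested genes of this group limma called these 3 and *Inhba* higher and 0 lower, around a median of 0.10 (left-out range 0.03 to 0.12). The activin receptor genes *Acvr1b*, *Acvr2a* and *Acvr2b* had log2 fold changes of 0.01, -0.03 and -0.19 without a call (limma adjusted p = 0.938, 0.931 and 0.344). *Acvr1*, a further receptor gene of the list, had 0.36, also without a call (limma adjusted p = 0.0904). The median of the list was 0.03 under quantile normalization, which did not call *Tgfbr2* or *Tgif1* and gave *Tgif1* 0.15.

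Genes that control plasminogen and clotting at the cell surface formed a second group. *F3* encodes tissue factor, the membrane protein that starts coagulation. Its counts were 4115, 3472 and 4794 in WT and 9827, 6624 and 10109 in LC-/- libraries, with L2 closer to WT than L1 and L3. The log2 fold change was 1.09 (standard error 0.21, limma adjusted p = 0.0459), and the call was lost with quantile normalization and without the mean-variance trend. *F2rl1*, the gene of the protease-activated receptor PAR-2, rose by 0.37, and *S100a10*, whose product binds plasminogen together with annexin A2, by 0.32 on the log2 scale. The protease gene *Plau*, which makes the ligand of *Plaur*, had a log2 fold change of 0.24 that was not called (limma adjusted p = 0.127), and *Plat*, the tissue-type activator, had -0.02 (left-out range -0.11 to 0.04), which turned positive under quantile normalization. *Serpinb2* encodes an inhibitor of urokinase and was among the most abundant transcripts, at 75761, 70747 and 90019 counts in WT and 128790, 102333 and 161596 in LC-/- libraries. All 3 LC-/- libraries of *Serpinb2* were above WT, but their spread was wide and limma did not call the log2 fold change of 0.71 (adjusted p = 0.134). DESeq2 made the call (adjusted p = 2.82e-06, range over alternatives 2.82e-06 to 0.282) but lost it without L1 (adjusted p = 0.0559). Of the exon bases of *Serpinb2*, 12% overlap *Serpinb10*. Of 14 tested genes for plasminogen activation and coagulation 4 were called higher (*Plaur*, *F3*, *F2rl1* and *S100a10*) and 0 lower, with a median of 0.28, which was 0.16 under quantile normalization, where *F3* and *S100a10* were not called and *S100a10* and *F2rl1* had 0.12 and 0.21. DESeq2 called 6 of the 14 higher.

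Annexins had 2 calls among 10 tested, both higher, or 20% against 5.37% of all tested genes. Besides *Anxa3*, limma called *Anxa11*, a membrane-binding protein of granule transport, which went from 386, 354 and 441 to 682, 635 and 603 counts (log2 fold change 0.70, limma adjusted p = 0.0252, 3 of 3 libraries higher). *Anxa8*, the member of the 10 tested with the highest count per kilobase, had 28374, 23961 and 23687 counts in WT and 18810, 22639 and 20479 in LC-/- libraries, a log2 fold change of -0.29 that DESeq2 called (adjusted p = 0.0233, range over alternatives 0.0233 to 0.272) and limma (0.177) and edgeR (0.0603) did not. DESeq2 lost this call without W1, W2, L1 or L3 (adjusted p up to 0.23). The median over the 10 was 0.09 (left-out range 0.06 to 0.13), and it changed sign to -0.06 under quantile normalization.

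Several genes of junctions between KCs were called higher. *Cldn4* encodes claudin 4 and *Ocln* occludin, which seal tight junctions. The *Cldn4* counts were 10965, 10660 and 10466 in WT and 18737, 21511 and 19933 in LC-/- libraries. For *Ocln* they were 1690, 1538 and 1759 against 3284, 2722 and 3062. WT values of *Cldn4* differed little from one another, and the lowest LC-/- library was still far above them. Log2 fold changes came to 0.91 for *Cldn4* (standard error 0.07, limma adjusted p = 0.0169) and 0.86 for *Ocln* (0.0193).

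Calls extended to adherens junctions. *Cdh1* encodes E-cadherin, to which LCs also bind, and had 23813, 23264 and 27585 counts in WT and 38728, 38476 and 39469 in LC-/- libraries, with the LC-/- mice nearly equal (log2 fold change 0.65, limma adjusted p = 0.0268). *Epcam*, an adhesion molecule made by LCs as well as by KCs, had 5995, 5799 and 6564 counts in WT and 9869, 9484 and 9970 in LC-/- libraries (log2 fold change 0.68, limma adjusted p = 0.0186). Which cells its RNA came from was not tested. *Epcam* was singled out after its values were seen. *Ctnnd1*, which encodes the catenin p120 that stabilizes E-cadherin, rose by 0.43, the nectin gene *Nectin2* by 0.39 and the desmosomal cadherin gene *Dsg3* by 0.33 on the log2 scale. Of 39 tested junction genes limma called 10 higher and 0 lower, with a median of 0.26. DESeq2 called 19 higher, and 9 to 19 with any 1 library left out. Quantile normalization lowered the median to 0.08 and the calls to 5 higher and 1 lower, without *Cdh1*, *Nectin2* and *Dsg3*, which had 0.12.

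Some genes of focal adhesions and actin were called in the same direction. *Zyx* encodes zyxin, a focal adhesion protein that responds to tension, and its counts were 2252, 2316 and 2473 in WT and 4021, 4120 and 4376 in LC-/- libraries. The gene had 2 tight and separate groups, with a log2 fold change of 0.83 (limma adjusted p = 0.0142). *Itga5*, the fibronectin receptor subunit, rose by 0.62, paxillin (*Pxn*) by 0.44 and talin (*Tln1*) by 0.28 on the log2 scale. Vinculin (*Vcl*) rose by 0.52, with 26% of its exon bases shared with *Ap3m1* on the other strand. The laminin and integrin list had 6 of 33 tested genes called higher and 0 lower, and a median of 0.13 (left-out range 0.07 to 0.17), or 0.08 under quantile normalization, which did not call *Vcl*, *Pxn* and *Tln1* and gave *Vcl* 0.34 and *Tln1* 0.14. Hemidesmosome genes had log2 fold changes of 0.10 for the integrin subunit *Itga6* and 0.07 for the collagen *Col17a1* without a call (limma adjusted p = 0.526 and 0.763, left-out ranges 0.04 to 0.15 and 0.04 to 0.10), and both turned negative under quantile normalization.

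Among genes of actin and its partners, 39 of 40 tested had a positive log2 fold change, with a median of 0.21, and 28 were positive under quantile normalization, where the median was 0.11. Limma called 7 higher and 0 lower. *Myh9*, the heavy chain of nonmuscle myosin IIA, had 14896, 15701 and 18424 counts in WT and 22370, 22455 and 24068 in LC-/- libraries, all 3 above WT (log2 fold change 0.50, limma adjusted p = 0.0474). Moesin (*Msn*) rose by 0.47, ezrin (*Ezr*) by 0.41, α-actinin 4 (*Actn4*) by 0.39 and the scaffold *Iqgap1* by 0.28 on the log2 scale. All 7 calls were lost with quantile normalization, which gave 0.31 for *Myh9* and *Msn*, 0.26 for *Ezr*, 0.22 for *Actn4* and 0.12 for *Iqgap1*. *Actb* itself, with 72743, 68122 and 74954 counts in WT and 96213, 103222 and 111847 in LC-/- libraries, had a log2 fold change of 0.53 that limma did not call (adjusted p = 0.0907). DESeq2 called *Actb* (adjusted p = 3.95e-08, range over alternatives up to 0.137) and 17 of the 40 genes.

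Hyaluronan genes had 1 call among 10 tested. *Cd44*, the main hyaluronan receptor of KCs, went from 10687, 11495 and 13781 counts in WT to 23865, 19191 and 23594 in LC-/- libraries, 3 of 3 above WT (log2 fold change 0.89, limma adjusted p = 0.0306). The hyaluronan synthase gene *Has2* had 92.2, 154 and 194 counts against 362, 225 and 393, and limma did not call its log2 fold change of 1.17 (adjusted p = 0.112), while DESeq2 (0.0236) and edgeR (0.00689) did, with a range over alternatives of 0.00238 to 0.124. Without W2, L1 or L3 DESeq2 did not call it (up to 0.135). The group median was 0.34, and 0.25 under quantile normalization. Of matrix proteases, *Adam8* rose by 0.72 and *Mmp2*, a gelatinase gene with 262, 211 and 224 counts in WT and 142, 147 and 117 in LC-/- libraries, fell by 0.78 on the log2 scale. These were the only calls of limma among 19 such genes, and that of *Adam8* was lost with quantile normalization.

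**Figure D2:**
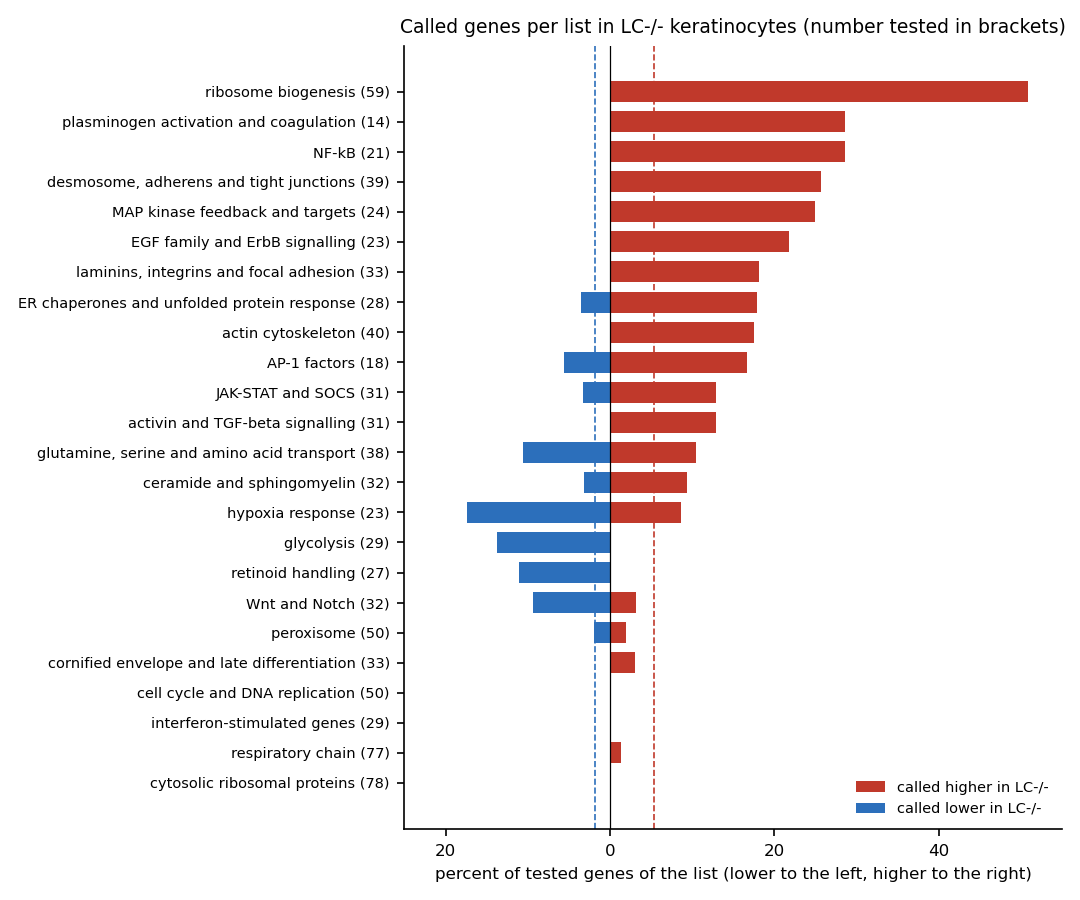
Share of tested members called higher or lower by limma in LC-/- KCs, in percent of each gene list, with dashed lines at the shares over all tested genes (5.37 and 1.85). Under quantile normalization the number of actin genes called fell to 0.

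Among the 5 subunits of NF-κB, a transcription factor of inflammatory and stress signalling, 4 were called higher. *Rela*, the p65 subunit of NF-κB, had 3269, 3017 and 3447 counts in WT and 5284, 6017 and 5372 in LC-/- libraries. *Nfkb2*, the p100 precursor, had 2258, 2192 and 2544 against 3628, 3864 and 3651, and *Nfkb1*, the p105 precursor, 4624, 4905 and 6002 against 8307, 7962 and 8298. No WT library of these genes reached an LC-/- library. On the log2 scale the increase was 0.78 for *Rela* (limma adjusted p = 0.0193), 0.67 for *Nfkb2* (0.0193) and 0.67 for *Nfkb1* (0.0314). *Relb*, the partner of p100, rose by 0.46, while the subunit gene *Rel* had 0.32 without a call (limma adjusted p = 0.0961). On the log2 scale the inhibitor gene *Nfkbib* rose by 0.51 and the adaptor gene *Traf2* by 0.41. In the list of 21 tested NF-κB genes 6 were called higher and 0 lower at a median of 0.09 (left-out range 0.07 to 0.16), which was 0.11 under quantile normalization. That normalization did not call *Nfkb1*, *Relb* and *Traf2*.

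JAK-STAT genes had 4 limma calls up and 1 down among 31 tested, against 7 and 4 by DESeq2 and 7 and 5 by edgeR. Their median was -0.06, with a sign that depended on single libraries (0.10 without L2 and 0.02 without L3). *Jak2*, a kinase shared by many cytokine receptors, had 2257, 2360 and 2866 counts in WT and 4409, 3634 and 4859 in LC-/- libraries (log2 fold change 0.78, limma adjusted p = 0.0428, 3 of 3 higher). *Il4ra*, the receptor chain for interleukins 4 and 13, rose by 0.52, *Osmr*, the oncostatin M receptor, by 0.43 and *Stat3* by 0.39 on the log2 scale. *Osmr* differed little within a genotype, with 2026, 1994 and 2036 counts in WT and 2756, 2653 and 2758 in LC-/- libraries. *Pias3*, an inhibitor of STAT3, fell by 0.34 on the log2 scale. The feedback gene *Socs3* had lower counts, 9871, 10435 and 9202 in WT and 6296, 8614 and 6522 in LC-/- libraries, and its log2 fold change of -0.47 was not called by limma (adjusted p = 0.104) but was by DESeq2 (0.000946) and edgeR (0.0173), with a range over alternatives of 0.000946 to 0.117. Quantile normalization did not call *Jak2*, *Stat3* or *Pias3* and gave *Stat3* 0.17.

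Among 23 tested cytokine genes limma called 2 higher and 1 lower, with a median of 0.00 (left-out range -0.02 to 0.00). *Il1rn*, the antagonist of interleukin 1, had 1819, 1880 and 1825 counts in WT and 2840, 2733 and 3165 in LC-/- libraries, and the WT libraries were almost identical (log2 fold change 0.66, limma adjusted p = 0.0193). *Lif*, which signals through gp130 as *Clcf1* does, had 52.3, 88.1 and 54.5 counts against 129, 155 and 137. Its log2 fold change of 1.13 fell just short in limma (adjusted p = 0.0514), but DESeq2 made the call (adjusted p = 4.68e-05, range over alternatives up to 0.0577). *Tnf* had 179, 193 and 237 counts in WT and 122, 105 and 127 in LC-/- libraries. It fell by 0.77 on the log2 scale (limma adjusted p = 0.0426), and the call was lost with quantile normalization. The alarmins *Il33* and *Il1a* had log2 fold changes of 0.46 and 0.50 that limma did not call (adjusted p = 0.0944 and 0.149). DESeq2 called both (adjusted p = 0.000717, range over alternatives 0.000717 to 0.195, and 0.0262, range 0.0262 to 0.194), as did edgeR (0.00956 and 0.0426), but DESeq2 lost *Il1a* without W1, W2, L1 or L3 (adjusted p up to 0.204).

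Chemokines had 2 calls among 19 tested, both higher, or 10.5% against 5.37% of all tested genes. *Cxcl16*, a membrane-bound chemokine for cells with CXCR6, had 4893, 5097 and 5549 counts in WT and 7780, 8290 and 8313 in LC-/- libraries, 3 of 3 higher (log2 fold change 0.65, limma adjusted p = 0.0193). Of its exon bases 18% overlap *Zmynd15* on the other strand. *Cxcl12*, the ligand of CXCR4, rose by 0.35 on the log2 scale, a call that was lost with quantile normalization. Limma called 0 of 29 tested interferon-stimulated genes, which had a median of 0.05 (0.20 without L1, 0.15 without W2 or L2 and -0.18 without L3), while 2 were higher and 1 lower with an unadjusted p under 0.05 and DESeq2 and edgeR each called 1 higher. It also called 0 of 9 tested antimicrobial genes, with 0 higher and 2 lower with an unadjusted p under 0.05, 0 calls by DESeq2 and edgeR and 1 lower with quantile normalization.

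Ribosome biogenesis had the largest share of called genes of the lists in this report with at least 10 tested members. Of 59 tested genes 30 were called higher and 0 lower, and 56 had a positive log2 fold change, with a median of 0.36. Under quantile normalization 55 were positive at a median of 0.31 and 18 were called. *Heatr1*, a factor of ribosomal RNA transcription and processing, had 918, 928 and 1125 counts in WT and 1702, 1628 and 1590 in LC-/- libraries. *Utp4*, a subunit of the small subunit processome, had 964, 851 and 1025 against 1527, 1536 and 1507, and *Rcl1*, which acts in cleavage of the ribosomal precursor RNA, had 470.4, 448 and 509 against 723, 791 and 830.1. The 3 LC-/- libraries of *Utp4* were almost equal and stood clear of WT. These genes rose by 0.73 (standard error 0.09) on the log2 scale for *Heatr1*, 0.69 for *Utp4* and 0.71 for *Rcl1*, with limma adjusted p values of 0.0228, 0.0194 and 0.0194. The processome genes *Pwp2* and *Mphosph10* rose by 0.67 and 0.66 on the log2 scale, and so did *Rrp12*, a factor of ribosome export, by 0.67, and *Rrp12* was not called with quantile normalization. DESeq2 called 37 of the list higher, and 25 to 36 with any 1 library left out, while limma called 0 to 15 in such fits.

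Of 78 genes of the ribosomal proteins themselves limma called 0, with 32 higher and 1 lower with an unadjusted p under 0.05 and 0 calls by DESeq2 and edgeR. A difference between this list and ribosome biogenesis was not tested. Their median log2 fold change was 0.15 with 76 positive, and it turned to -0.03 with 26 positive under quantile normalization. Splicing factors had 5 of 55 called higher, or 9.09% against 5.37% of all tested genes, and 0 lower (median 0.11). Under quantile normalization 1 splicing factor was called higher at a median of 0.02. Proteasome subunits had 3 of 41 called higher, or 7.32%, also near the share over all genes, and 0 lower (median 0.04, left-out range 0.04 to 0.10). Under quantile normalization 1 subunit was called higher. *Myc*, a regulator of ribosome synthesis, had a log2 fold change of -0.23 that was not called (limma adjusted p = 0.153). *Igf2bp2*, an RNA-binding protein that stabilizes messages, rose from 94.3, 124 and 141 counts in WT to 285, 265 and 267 in LC-/- libraries, 3 of 3 above WT (log2 fold change 1.20, limma adjusted p = 0.0251).

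Some genes that sense or answer protein-folding stress in the endoplasmic reticulum were called higher. *Ern1* encodes the sensor IRE1α, and its counts were 618, 690.1 and 722 in WT and 1053, 1128 and 1075 in LC-/- libraries, well apart (log2 fold change 0.68, limma adjusted p = 0.0193). The sensor gene *Atf6* rose by 0.46, and the transcription factor genes *Ddit3* and *Atf4* by 0.45 and 0.39 on the log2 scale. *Sesn2*, a stress-induced inhibitor of mTORC1, rose by 0.37, while the disulfide isomerase gene *Pdia4* fell by 0.41 on the log2 scale. Among 28 tested genes 5 were called higher and 1 lower, with a median of 0.07 (left-out range 0.05 to 0.12). The third sensor gene *Eif2ak3* (0.20), the transcription factor gene *Xbp1* (0.40) and the chaperone gene *Hspa5* (0.22) were not called (limma adjusted p = 0.139, 0.0514 and 0.265). In the other direction *Herpud1*, at -0.52, was not called either (limma adjusted p = 0.0572), and of the 28 genes 18 were positive and 10 negative. Quantile normalization gave a median of 0.01 and called 3 higher and 2 lower, without *Atf4* and *Sesn2*, which had 0.16 and 0.18.

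Carriers of amino acids were called in both directions. *Slc1a1*, a carrier of glutamate and aspartate also known as EAAC1, had 324, 286 and 362 counts in WT and 776, 723 and 966 in LC-/- libraries. *Slc6a14*, which takes up neutral and basic amino acids with sodium and chloride, had 1057, 1224 and 1502 against 3149, 2163 and 3328, with L2 closest to WT. The log2 fold changes were 1.34 for *Slc1a1* (limma adjusted p = 0.0194) and 1.18 for *Slc6a14* (0.042), and *Slc6a14* was not called with quantile normalization or without the trend. The arginine and lysine carrier *Slc7a1* rose by 0.57, and *Odc1*, which makes putrescine from ornithine, by 0.43 on the log2 scale. In the other direction, the neutral amino acid carrier *Slc1a4* fell by 0.55, *Slc7a6* by 0.48 and *Shmt2*, the mitochondrial serine hydroxymethyltransferase, by 0.27 on the log2 scale. Of 38 tested genes of this group 4 were called higher and 4 lower, with a median of -0.03 (left-out range -0.08 to 0.00). *Odc1* and *Slc1a4* lost their calls under quantile normalization, where *Odc1* had 0.25 and the median of the group was -0.12.

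Lipid genes held few calls outside sphingomyelin synthesis. Besides *Sgms1* and *Sgms2*, the dihydroceramide desaturase gene *Degs1* rose by 0.32 on the log2 scale, a call lost with quantile normalization, where it had 0.20. *Sgpp1*, which dephosphorylates sphingosine 1-phosphate, went the other way, with 2419, 2066 and 1941 counts in WT and 1459, 1424 and 1466 in LC-/- libraries (log2 fold change -0.56, limma adjusted p = 0.0311, 3 of 3 lower). Ceramide and sphingomyelin genes as a list had 3 of 32 called higher and 1 lower, with a median of -0.01 (left-out range -0.09 to 0.03). *Aloxe3*, a lipoxygenase needed for the lipid envelope of corneocytes, had 397, 384 and 384 counts against 871, 876 and 758, an increase seen in 3 of 3 libraries (log2 fold change 1.10, limma adjusted p = 0.0142).

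*Kcnn4*, a calcium-activated potassium channel, went from 25.6, 15.8 and 27.7 counts in WT to 60.6, 61.1 and 73.6 in LC-/- libraries. *Slc34a2*, a sodium and phosphate carrier, had 31.8, 34.3 and 37.2 against 85.9, 117 and 66.2. *Sema7a*, a membrane-anchored semaphorin that binds integrins, had 21.5, 23.2 and 19 against 49.6, 47.8 and 42. In each of them the LC-/- libraries stood clear of WT, and those of *Slc34a2* were the most uneven. The log2 fold changes were 1.49 for *Kcnn4* (limma adjusted p = 0.0349), 1.32 for *Slc34a2* (0.0395) and 1.10 for *Sema7a* (0.0228). Guidance genes as a list gave only 1 further call among 28 tested, *Sema3f*, which fell by 0.32 on the log2 scale. Heparan sulfate enzymes likewise split, since *Ndst1*, an N-sulfotransferase, rose by 0.19 and *Hs3st3b1*, another 3-O-sulfotransferase, fell by 0.38 on the log2 scale, around a median of -0.01 over 21 genes (left-out range -0.06 to 0.03). Quantile normalization did not call *Sema3f*, *Ndst1* (0.07) or *Hs3st3b1*, and edgeR and DESeq2 did not call *Ndst1*.

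**Figure D3:**
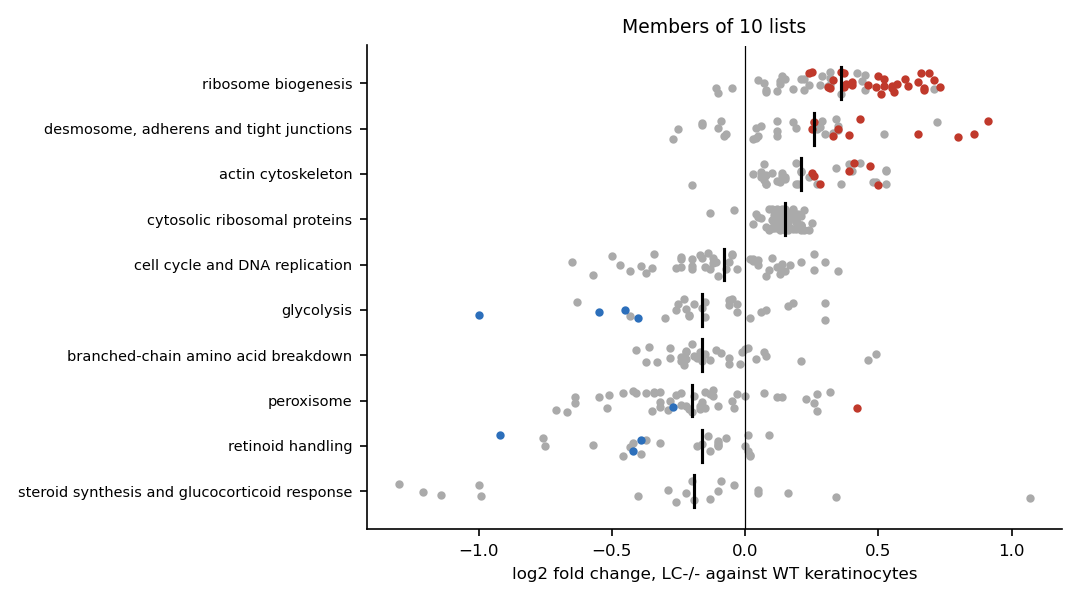
Log2 fold change in LC-/- against WT KCs of each tested member of 10 gene lists, with 1 dot per gene, red and blue for genes called higher and lower by limma and a black bar for the median. The median of ribosome biogenesis is 0.36 and that of ribosomal proteins 0.15, which turns to -0.03 under quantile normalization.

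Single genes of glutamine synthesis, of lactate export and of the restraint of mitochondrial complex I were called lower. *Glul* encodes glutamine synthetase, which makes glutamine from glutamate and ammonia, and its counts were 1935, 1254 and 2152 in WT and 722, 737 and 604 in LC-/- libraries. *Slc16a3*, the lactate exporter MCT4, had 273, 277 and 326 against 166, 138 and 133. *Ndufa4l2*, a hypoxia-induced protein that restrains mitochondrial complex I, had 1926, 2340 and 1982 against 997, 1293 and 1186. WT values of *Glul* were uneven, with W2 lowest, but each was far above every LC-/- value. A second lactate carrier gene, *Slc16a1*, had a log2 fold change of 0.18 without a call (limma adjusted p = 0.458). The log2 fold changes were -1.34 for *Glul* (standard error 0.22, limma adjusted p = 0.0361), -0.85 for *Ndufa4l2* (0.028), and *Slc16a3* was at 0.501 of its WT level (0.0228).

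Calls among oxygen-sensing and glycolytic genes were mostly lower. *Egln3* and *Egln1* encode prolyl hydroxylases that mark hypoxia-inducible factors for decay. *Egln3* counts were 692, 746 and 761 in WT and 462, 361 and 489 in LC-/- libraries, and *Egln1* counts 1211, 1336 and 1240 against 887, 886 and 827, with 3 of 3 libraries lower in both. They fell by 0.75 (limma adjusted p = 0.0357) and 0.54 (0.0193) on the log2 scale. *Eno1*, the glycolytic enzyme enolase, fell by 0.45 and *Pdk1*, which holds pyruvate back from the mitochondria, by 0.40 on the log2 scale. *Higd1a*, a mitochondrial protein induced by low oxygen, fell by 0.50 on the log2 scale. Not all hypoxia targets followed, since *Ndrg1*, a stress-responsive gene of differentiating cells, had 9017, 7979 and 8495 counts against 11984, 12315 and 13827 and rose by 0.58, or 0.38 under quantile normalization, and adrenomedullin (*Adm*) rose by 0.50 on the log2 scale. *Vegfa* had a log2 fold change of -0.26 that was not called (limma adjusted p = 0.229). Of 23 tested hypoxia genes 2 were called higher and 4 lower, with a median of -0.24, or -0.27 under quantile normalization. Glycolysis had 0 higher and 4 lower of 29 (median -0.16, and -0.20 under quantile normalization). The lower calls were *Slc16a3*, *Eno1*, the related entry *Eno1b* and *Pdk1*, and *Pdk1* is counted in the hypoxia list as well.

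Other metabolic lists held few calls. Peroxisome genes had a median of -0.20 with 9 of 50 positive, and the calls were 1 higher (*Pex5*, a receptor for peroxisomal enzymes, at 0.42) and 1 lower (*Pex7*, which fell by 0.27, a call that 2 of 11 alternatives kept). *Ppara*, a nuclear receptor of fatty acid oxidation, had 238, 203 and 219 counts in WT and 133, 148 and 144 in LC-/- libraries and fell by 0.63 on the log2 scale (limma adjusted p = 0.026, 3 of 3 lower), the 1 call among 29 tested oxidation genes. Breakdown of branched-chain amino acids had 0 limma calls among 35 genes, with 0 higher and 11 lower with an unadjusted p under 0.05 and 2 lower each by DESeq2 and edgeR. The citrate cycle had 1 of 26 called (*Dlst*, higher) and the respiratory chain 1 of 77 (*Cycs*, higher), with medians of -0.07 and -0.03, the second with a left-out range of -0.07 to 0.01. Quantile normalization did not call *Dlst* and called 1 respiratory chain gene lower, and edgeR and DESeq2 did not call *Cycs*.

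Single genes of insulin signalling, receptor turnover and retinol oxidation fell. *Irs1*, the docking protein of the insulin and IGF1 receptors, had 402, 301 and 359 counts in WT and 191, 194 and 175 in LC-/- libraries. *Arrdc3*, an arrestin-like adaptor for receptor turnover, had 1711, 1632 and 1814 against 921, 902 and 801. *Adh7*, an alcohol dehydrogenase that oxidizes retinol, had 1102, 779 and 952 against 501, 437 and 546. All 3 LC-/- libraries lay below the WT range in each gene, and those of *Irs1* and *Arrdc3* close together, with log2 fold changes of -0.91 for *Irs1* (limma adjusted p = 0.0251), -0.98 for *Arrdc3* (0.0169) and -0.92 for *Adh7* (0.0356).

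Of 4 retinoid receptor genes tested, 2 were called lower. *Rxra* counts were 3999, 3543 and 3624 in WT and 2669, 2996 and 2672 in LC-/- libraries, and *Rarg* counts 4647, 4417 and 4070 against 3182, 3431 and 3424. Both were lower in 3 of 3 libraries, by 0.42 (limma adjusted p = 0.0371) and 0.39 (0.0346) on the log2 scale. *Rara* and *Rxrb* each had a log2 fold change of -0.10 without a call (limma adjusted p = 0.263 and 0.572). Of 27 tested retinoid genes 0 were called higher and 3 lower, with a median of -0.16 (left-out range -0.36 to -0.15), or -0.14 under quantile normalization. *Tsc22d3*, a glucocorticoid-induced gene also called GILZ, had 1195, 898 and 1545 counts in WT and 549, 584 and 342 in LC-/- libraries, all below WT. Its log2 fold change of -1.30 was not called by limma (adjusted p = 0.0616), but DESeq2 made the call (adjusted p = 0.000727, range over alternatives 0.00014 to 0.0731). *Zbtb16*, a second such gene, had a log2 fold change of -0.99 that limma did not call (adjusted p = 0.116), while DESeq2 (0.0184) and edgeR (0.00597) did, with a range over alternatives of 0.00193 to 0.13. DESeq2 without W1, W3, L1 or L3 did not call *Zbtb16* (up to 0.144). The list of 20 steroid and glucocorticoid genes had 0 limma calls, with 1 higher and 5 lower with an unadjusted p under 0.05, 3 lower by DESeq2 and 1 higher and 4 lower by edgeR. Xenobiotic and aryl hydrocarbon receptor genes had 0 limma calls among 26 as well, with 0 higher and 4 lower with an unadjusted p under 0.05 and 1 lower each by DESeq2 and edgeR. The lowest log2 fold change in that list was -3.46, so the absence of limma calls does not mean that all changes were small.

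Wnt, Notch and Hippo genes included several of the lower calls. *Axin2*, a negative regulator that Wnt signalling induces, had 969, 915 and 836 counts in WT and 559.7, 689 and 538 in LC-/- libraries (log2 fold change -0.61, limma adjusted p = 0.0436, 3 of 3 lower). The Notch target gene *Hes1* fell by 0.51 and *Dkk3*, of the Dickkopf family, by 0.30, while *Wnt5b*, a noncanonical ligand, rose by 0.74 on the log2 scale. These were 3 lower and 1 higher among 32 tested genes, and *Axin2* and *Hes1* were not called with quantile normalization. *Sostdc1*, an inhibitor of Wnt and BMP signals, had 829, 870.01 and 901 counts against 577, 481 and 553 (log2 fold change -0.69, limma adjusted p = 0.0205, 3 of 3 lower). *Tnfrsf19*, a receptor of the TNF family that is also a Wnt target, fell by 0.58 on the log2 scale. *Ajuba*, which restrains the Hippo kinases, fell by 0.51 and the kinase gene *Nuak2* by 0.49 on the log2 scale, and with *F3* they were the 3 calls among 22 tested Hippo pathway targets. The median of that list was 0.11 (left-out range 0.06 to 0.12), and -0.04 under quantile normalization.

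Lists of KC layers had at most 1 call per direction, and that of KC identity had 4. *Krt16*, a keratin of wound edges, had 6746, 5901 and 6576 counts in WT and 8869, 9804 and 8436 in LC-/- libraries and rose by 0.50 on the log2 scale (limma adjusted p = 0.0354), a call lost with quantile normalization, where it had 0.31. Its partners in wounds did not follow, with log2 fold changes of 0.12 for *Krt17* (left-out range 0.01 to 0.23), which turned negative under quantile normalization, and -0.07 for *Krt6a* (-0.15 to 0.03). The suprabasal gene *Krt10* had -0.22 (left-out range -0.41 to -0.08), and the cornified envelope genes *Lor* and *Flg* had 0.06 (-0.52 to 0.49) and -0.27 (-0.75 to 0.02). Limma called 0 of these 5. Cornified envelope genes had 1 of 33 called higher (*Aloxe3*) and 0 lower, suprabasal genes 1 higher and 1 lower of 18, and basal genes 1 higher and 0 lower of 18, with a median of 0.03 (left-out range 0.01 to 0.06) that turned to -0.15 under quantile normalization. The 20 genes of KC identity had 4 calls, all higher (*Cdh1*, *Klf5*, *Grhl1* and *Dsg3*), and all 4 were lost with quantile normalization, where *Klf5* moved from 0.41 to 0.20, *Grhl1* from 0.38 to 0.25 and the median from 0.06 (left-out range 0.03 to 0.08) to -0.08. Of 50 cell cycle genes limma called 0, with 2 higher and 5 lower with an unadjusted p under 0.05, 1 higher and 3 lower by DESeq2 and 2 lower by edgeR.

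Appendage genes had scattered calls. *Prdm1* encodes Blimp1, a repressor found in sebaceous and differentiated KCs, and its counts were 865, 902 and 973 in WT and 1601, 1548 and 1735 in LC-/- libraries (log2 fold change 0.83, limma adjusted p = 0.0169, 3 of 3 higher). *Plet1*, a surface marker of the upper hair follicle, had 20566, 19344 and 22553 against 35406, 32585 and 43579 (log2 fold change 0.83, limma adjusted p = 0.0347), with 13% of its exon bases overlapping a gene on the other strand. Of 23 tested hair follicle genes 2 were called higher (*Plet1* and *Fst*) and 1 lower (*Sostdc1*), with a median of -0.08 (left-out range -0.11 to -0.01). These were 8.7% higher and 4.35% lower, against 5.37% and 1.85% of all tested genes. The sebaceous list had 1 higher and 1 lower of 13. *Cry1*, a repressor of the circadian clock, rose by 0.55 on the log2 scale and was the 1 call among 18 clock genes.

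Promoter sequences are shown for 3 of the raised genes, because AP-1 subunits were among the genes that changed and the letters AP-1 binds occur there. The motif TGANTCA reads the same on both strands. Windows from 250 bases before to 50 after a transcription start, from RefSeq on GRCm38.p6, held it in 7.81% of all 32851 windows. Only 71.4% of the tested genes had a window, so a comparison of shares between called and other genes is void. Of the 31 genes called higher at least 2-fold that had a window, 10 had the motif and 21 did not. The motif was present for 57 of the 607 genes called higher with a window and for 669 of the 10291 tested genes with a window. Windows per gene numbered 1.55 for the 31 genes and 1.28 for the tested genes, so these shares are not on an equal footing. A match is not a bound site, and no cause is read from it. The *Plaur* window before the start (chr7:24462233-24462482, + strand) has the motif with its first base 69 bases before the start. The *F3* window (chr3:121723287-121723536, + strand) has it at 146 and 135 bases, and the *Cldn4* window (chr5:134946935-134947184, - strand) at 240 and 158 bases. Windows of *Inhba*, *Kcnn4* and *Hs3st1* did not have it, and *Anxa3*, *Clcf1* and *Nrg1* have no entry.
Plaur: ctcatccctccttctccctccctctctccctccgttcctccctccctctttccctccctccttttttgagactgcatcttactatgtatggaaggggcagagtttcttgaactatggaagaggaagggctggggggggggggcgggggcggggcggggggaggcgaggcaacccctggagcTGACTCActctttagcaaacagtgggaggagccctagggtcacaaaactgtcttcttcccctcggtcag
F3: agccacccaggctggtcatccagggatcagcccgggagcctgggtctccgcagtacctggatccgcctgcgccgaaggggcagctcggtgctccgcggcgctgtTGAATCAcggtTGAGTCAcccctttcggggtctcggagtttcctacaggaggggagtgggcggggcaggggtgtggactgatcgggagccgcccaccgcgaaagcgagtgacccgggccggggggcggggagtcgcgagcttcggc
Cldn4: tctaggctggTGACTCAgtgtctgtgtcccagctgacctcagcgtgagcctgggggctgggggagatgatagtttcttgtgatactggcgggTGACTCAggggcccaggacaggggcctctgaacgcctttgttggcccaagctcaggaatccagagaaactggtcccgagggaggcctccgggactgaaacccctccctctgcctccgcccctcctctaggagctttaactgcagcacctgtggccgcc

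Markers of other cells were followed in the same libraries. Among 14 tested genes of LCs and phagocytes limma called 3 lower (*Cd207*, *Ctss* and *Tyrobp*, none of them given an adjusted p by DESeq2) and 0 higher, and 1 higher with quantile normalization. *Ctss* had 4.1, 5.57 and 4.32 counts in WT and 0 in all LC-/- libraries. The list summed to 707, 807 and 821 counts in WT and 585, 604 and 610.5 in LC-/- libraries, of which *Sirpa*, a gene that other cells express too, made up 537, 602 and 656 and 469, 448 and 439. DETC and T cell genes summed to 673, 493 and 681 against 523, 471 and 376, mostly *Thy1*, with 1 of 30 tested called higher (*Cd3g*, from 1 read per WT library, which DESeq2 gave no adjusted p and quantile normalization did not call). Fibroblast genes summed to 2475, 2761 and 2733 against 2496, 2364 and 2359, with 1 of 7 called lower (*Mmp2*). Limma called 0 of 4 melanocyte genes (0 higher and 1 lower with an unadjusted p under 0.05, 1 lower each by DESeq2 and edgeR) and 0 of 3 mast cell genes (0 at an unadjusted p under 0.05 and 0 by DESeq2 and edgeR). It also called 0 of 3 endothelial genes (1 higher at an unadjusted p under 0.05, 0 by DESeq2 and edgeR) and 0 of 2 muscle, 2 adipocyte and 1 erythroid gene (0 by each measure).

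DETCs offered a second epidermal population, and an interaction term over all 11 libraries tested whether the absence of LCs changed a gene by a different amount there than in KCs. The amounts differed for 115 genes (limma, adjusted p under 0.05), or 0.798% of the tested genes, and for 11 of the 241 genes covered by the naming rule, 10 of them called in KCs. The naming rule used the same KC values that enter this difference. The count among named genes therefore cannot be compared with the share over all tested genes. Without the mean-variance trend far fewer genes differed, and that count is given with the dependence on processing. *Arrdc3* fell in KCs, where its log2 fold change was -0.98, and had 0.14 in DETCs (difference 1.11, limma adjusted p = 0.00257). For *Axin2* the values were -0.61 and 0.39 (difference 1.01, limma adjusted p = 0.00969), and for *Hs3st3b1* -0.38 and 0.79 (difference 1.17, limma adjusted p = 0.00257). *Plaur*, *Inhba* and *Anxa3* did not pass this test (limma adjusted p = 0.0704, 0.64 and 0.729).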

How the data were processed

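RNA of sorted KCs and DETCs was sequenced by the authors, whose methods name cutadapt, hisat2, featureCounts and median-of-ratios scaling, and whose notes to the deposited data name DESeq2 and GRCm38. The deposited values are a signal per gene, a normalized count, for 52550 genes, 24539 of which had a read in KCs. The sources used here do not give the strand of counting. Multiplying by size factors brought 100% of the values within 0.01 reads of a whole number. Pairs of KC libraries from one genotype had a chi-square of 8.32 to 23.1 for each degree of freedom, more than counting error gives.

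Genes with a CPM above 1 in at least 2 of 11 libraries were tested as log2 of the value plus 1 in R 4.3.3 with limma-trend (version 3.58.1, Benjamini-Hochberg adjustment). Read counts went to edgeR 4.0.16, which called 1192 genes higher and 591 lower, and DESeq2 1.42.0, which called 1219 and 538. The tests were checked on simulated counts. Genotypes came from the labels, and DTA was read as LC-/-. Other alternatives were quantile normalization, size factors within KCs, pseudocounts of 0.5 and 8, a minimum mean of 10, the CPM filter within KCs, no filter, no trend, all 11 libraries in one fit, the mouse number as a replicate block and omission of each library. The DESeq2 fits that omit a library were chosen after seeing the data.

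The rule for naming genes took called genes whose mean reached 10 (the 15 largest changes per direction without overlap of the genotypes, and the 6 most abundant per direction changed at least 1.3-fold) and up to 6 called members per direction and the most abundant member of each of 61 gene lists, with abundance taken per kilobase. *Mafk*, *Rel*, *Rara*, *Rxrb*, *Eif2ak3*, *Xbp1*, *Slc16a1* and the activin receptor genes were also named after their values were seen. Some genes that the rule selects are not reported here. *Lif*, *Has2*, *Tsc22d3*, *Zbtb16*, *Fos*, *Myc* and other genes without a call, and *Epcam*, which was called, were named after their values were seen. The members of the comparison and the lists were chosen with earlier results of these data known. Exon overlaps and lengths came from GENCODE mouse release 21.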

Additional observations from a re-analysis of the deposited data

Results flagged for a closer look

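Of the 115 genes whose change differed between KCs and DETCs by the interaction test (limma, adjusted p), the 11 covered by the rule for naming genes are listed here, with the difference given as the DETC log2 fold change minus that of KCs. *Cd3g*, with 1 read in each WT KC library and 9, 6 and 3 in the LC-/- libraries, had -0.19 in DETCs and a difference of -2.01 that depends on the pseudocount (limma adjusted p = 0.0308). *Heatr1* had 0.73 in KCs and 0.06 in DETCs, a difference of -0.67 (limma adjusted p = 0.0319). *Atf6* had 0.46 and -0.09, a difference of -0.56 (limma adjusted p = 0.0473). In the other direction, *Hs3st3b1* had -0.38 in KCs and 0.79 in DETCs, a difference of 1.17 (limma adjusted p = 0.00257). *Socs3*, not called in KCs, had -0.47 and 0.36, a difference of 0.83 (limma adjusted p = 0.0473). *Axin2* had -0.61 and 0.39, a difference of 1.01 (limma adjusted p = 0.00969). *Tnf* had -0.77 and 0.11, a difference of 0.88 (limma adjusted p = 0.0492). *Arrdc3* had -0.98 and 0.14, a difference of 1.11 (limma adjusted p = 0.00257). *Slc16a3* was at 0.501 of its WT level in KCs and had a log2 fold change of 0.09 in DETCs, a difference of 1.08 (limma adjusted p = 0.0319). *Glul* had -1.34 and 0.07, a difference of 1.41 (limma adjusted p = 0.0256). *Ctss*, with KC counts near the floor in WT and 0 in LC-/- libraries, had -0.48 in DETCs and a difference of 2.01 that depends on the pseudocount (limma adjusted p = 0.0299). DETC libraries numbered 5, with 3 WT and 2 LC-/-.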

How the results depend on the processing

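The counts of called genes depended on the processing. Genes called higher numbered 775 as reported, 508 when limma was fitted with no trend and 419 with quantile normalization. Their count was 1192 in edgeR, 1219 in DESeq2, 1165 with a minimum mean of 10 and 1170 with the CPM filter within KCs. Genes called lower numbered 267 as reported, 591 in edgeR, 538 in DESeq2, 575 with the minimum mean, 581 with the CPM filter within KCs and 536 without a filter. At least 2-fold changes numbered 79, and 122 in edgeR, 46 with a pseudocount of 8, 137 without a filter and 121 over all 11 libraries. The minimum mean and the CPM filter test fewer genes and the absence of a filter more genes. A larger pseudocount shrinks changes of low counts by construction, and for the other settings the cause was not tested.

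With 1 library omitted, which leaves fewer samples, limma called 5 to 552 genes higher, 0 to 169 lower and 5 to 59 changed at least 2-fold. DESeq2 without L2 called 1468 higher and 603 lower, and without W1 154 lower. Its 2-fold changes numbered 27 without W1, 34 without L1 and 35 without L3. These DESeq2 fits were chosen after seeing the data.

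The 115 genes that differed between KCs and DETCs became 22 without the trend, and the cause was not tested. KC and DETC libraries share mouse numbers, and deviations from the group mean correlated between the 2 libraries of a number at -0.0534 for W1, 0.0667 for W2, 0.117 for W3, 0.143 for L2 and 0.117 for L3, not all over 0.1, so they were not treated as pairs. With the mouse number as a replicate block 132 genes differed, among them *Kcnn4* (limma adjusted p = 0.0452, against 0.0556 without the block), *Maf* (0.0492, against 0.0609) and *Slfn10-ps* (0.0452, against 0.0548), and the 11 named genes that differed without the block differed with it.

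Of the 165 called genes taken up for naming, 164 were still called with size factors within KCs, 162 with a pseudocount of 0.5, 161 with one of 8, 156 in edgeR, 147 without a filter, 144 in DESeq2, which gave 152 an adjusted p, 125 over all 11 libraries, 118 without the trend and 95 with quantile normalization. None of the 165 changed sign in any of these, while *Krt14*, *Krt17*, *Itga6*, *Col17a1*, *Hbegf* and *Plat*, which were not called, turned sign under quantile normalization. The log2 fold change moved by over 1.5 times in 27 of the 165 with quantile normalization, 7 with a pseudocount of 8, 4 in DESeq2 and 3 in edgeR. Depth limits genes with few reads, since 3 reads are 1.88e-05% to 2.22e-05% of a KC library.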

Other observations

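Stress lists outside the groups of the report held few calls in KCs. Heat shock genes had 1 of 17 called higher (*Bag3*, a chaperone partner, with 1832, 1919 and 1972 counts in WT and 2203, 2389 and 2320 in LC-/- libraries, a call lost with quantile normalization, which moved its log2 fold change from 0.27 to 0.15) and a median log2 fold change of 0.08 that turned to -0.05 under quantile normalization. *Hsp90ab1*, with the highest count per kilobase among them, had 33305, 31765 and 34633 counts against 33791, 35465 and 35456. Among 38 genes of NRF2 and glutathione limma called 0, with 7 higher and 3 lower with an unadjusted p under 0.05 and 3 higher and 1 lower by DESeq2 and edgeR. Fatty acid synthesis had 1 of 24 called lower by limma, *Scd3*, at 8.2, 11.1 and 7.78 counts in WT and 3.31, 2.04 and 1.05 in LC-/- libraries, to which DESeq2 gave no adjusted p.

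*Angptl7*, a secreted angiopoietin-like protein gene named after its values were seen, had 345, 142 and 295 counts in WT and 89.2, 80.4 and 25.2 in LC-/- libraries, 3 of 3 below WT. Its log2 fold change of -2.08 was not called by limma (adjusted p = 0.106) while edgeR (adjusted p = 0.0032) and DESeq2 (0.0139) made the call. Its alternatives ranged from 0.00114 to 0.127, and DESeq2 without W3 did not call it.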
